A study of Mus musculus with 17 samples.

Results

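The glycolysis genes described here are Slc2a1, Hk2, Pfkp, Aldoa, Tpi1, Gapdh, Pgk1, Pkm, Ldha and Pdk1, taken by symbol from the table of 55536 genes. They are 10 genes, and all 10 were among the 15352 genes with enough counts to test. A second entry with the symbol Aldoa (ENSMUSG00000114515) held no count in any library but WT GC replicate 4, which had 2, and was not used. RNA was sequenced from B cells sorted from mouse spleen as naive, activated or germinal centre (GC) cells. Mice were p52ki, a knock-in of the NF-kB subunit p52, which is processed from the Nfkb2 product, or wild type (WT). There were 3 libraries of p52ki naive, 3 of WT naive, 3 of p52ki activated, 3 of WT activated, 2 of p52ki GC and 3 of WT GC cells, 17 in all. The sources used here give neither the altered p52 sequence, strain, age, nor any immunisation or sorting gate. By its title, the series is about p52 acting with ETS1, a transcription factor, when GCs form.

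Glycolysis splits glucose into pyruvate in the cytosol and yields ATP and NADH. Pyruvate then enters mitochondria, where the pyruvate dehydrogenase complex acts on it, or is reduced to lactate, which returns NAD+ to the pathway. Many of these genes are known targets of the hypoxia-inducible factor HIF-1 and of MYC, and B cells are known to take up more glucose when they are activated. GC B cells divide fast in a tissue with little oxygen, and how far they use glycolysis or mitochondrial oxidation has been studied by several groups.

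Of the 17 libraries, 3 stood apart: both p52ki GC libraries and WT GC replicate 3. These 3 had 11232 to 13044 detected genes and 4067281 to 6625399 counts. The other 14 had 16745 to 19672 detected genes and 6211583 to 10036347 counts. Among the 994 genes at 10 to 20 CPM (counts scaled to a common library total) in both other WT GC libraries, 24.8% had no count in p52ki GC replicate 2, 10.5% in p52ki GC replicate 5 and 21.3% in WT GC replicate 3. In p52ki activated replicate 2 and WT activated replicate 1, which have the full number of genes, 0.302% and 0.704% of these genes had none. A low gene can therefore be missing from these GC libraries, while of the 1916 genes at 100 CPM or more at most 0.365% were. The part of this loss in the results for GC cells below was not tested. GC markers (Bcl6, S1pr2, Fas, Gcsam, Mybl1 and Rgs13) summed to 726 to 1350 CPM in p52ki GC and 1190 to 1790 CPM in WT GC cells, against 54 to 191 CPM over the naive and activated libraries. Of these, S1pr2 had 48.7 to 63.4 CPM in p52ki GC and 144 to 304 CPM in WT GC cells. Gcsam had 131 to 146 against 376 to 571 CPM, and Mybl1 26.6 to 71.7 against 82.9 to 159 CPM, in the same groups. S1pr2, Gcsam and Mybl1 did not overlap, as was so of 16.3% of all genes in that direction, while Bcl6, Fas and Rgs13 overlapped. Markers of naive follicular B cells (6 genes) summed to 1140 to 1280 CPM in p52ki GC and 436 to 580 CPM in WT GC cells. Plasma cell markers (5 genes) summed to 2470 to 2760 CPM in p52ki GC and 2720 to 5880 CPM in WT GC cells. In p52ki activated cells they summed to 1710 to 3120 CPM, and in WT activated cells to 2070 to 7780 CPM. Jchain made up most of the GC sums, at 2140 to 2470 CPM in p52ki and 2290 to 5250 CPM in WT. Prdm1 was at 0 in both p52ki GC libraries and at 4.72 to 17.9 CPM in WT GC cells. Sdc1 was at 0 to 2.95 CPM in p52ki GC and 0.609 to 6.44 CPM in WT GC cells. Erythroid and platelet markers (8 genes) summed to 330 to 342 CPM in p52ki GC and 49.7 to 217 CPM in WT GC cells, with Alas2, Pf4, Ppbp and Itga2b at 0 in both p52ki GC libraries. T cell markers (7 genes) summed to 61.7 to 70.1 CPM in p52ki GC and 48.5 to 121 CPM in WT GC cells, with Cd3g, Trac, Cd4 and Cd8a at 0 in both p52ki GC libraries. Of that sum, Lck had 31.5 to 61 CPM in p52ki GC and 39 to 117 CPM in WT GC cells. Cd3e reached 27 CPM in p52ki GC and 0.704 CPM in WT GC cells, and Cd3d 11.6 CPM in p52ki GC and 0.393 CPM in WT GC cells. Macrophage, monocyte and dendritic cell markers (10 genes) summed to 30 to 72.3 CPM in p52ki GC and 23.9 to 49.4 CPM in WT GC cells. NK cell markers (7 genes) summed to 4.98 to 33.4 CPM in p52ki GC and 0 to 8.65 CPM in WT GC cells. The part of these cells in the results was not tested. Nfkb2 had 121 and 68.1 CPM in p52ki GC cells against 64.6, 41.6 and 54.0 CPM in WT GC cells, and a count of the gene does not check the knock-in.

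The sequence upstream of the genes was searched because they are known as a group of HIF-1 and MYC targets. In windows of 250 bases before each RefSeq start (GRCm38.p6), the core of the hypoxia response element, ACGTG on either strand, was in 6 of the 10 genes: Slc2a1, Hk2, Aldoa, Pgk1, Pkm and Ldha. Over all genes in the table of promoters the share was 18.5%. It was not in the windows of Pfkp, Tpi1, Gapdh and Pdk1. The palindromic E-box CACGTG, which contains ACGTG, was in Ldha alone among the 10, and in 6.86% of all genes. The NF-kB pattern of GGGA and CC with any 4 bases between was in Pgk1 alone, and in 19.7% of all genes. CCGGAAGT, an ETS pattern, was in none of the 10 genes and in 3.23% of all genes. A match is a run of letters and not a bound site. The windows of Ldha (chr7:46845554-46845803, plus strand) and Pgk1 (chrX:106186850-106187099, plus strand) are shown as those with the most matches over the 4 patterns together. Those of Gapdh (chr6:125165774-125166023, minus strand), Pdk1 (chr2:71872974-71873223, plus strand) and the outer 112 bases for Tpi1 (chr6:124814297-124814408, minus strand) are shown because these genes differed most between GC cells and other cells or between genotypes. Capitals mark ACGTG on either strand.
Ldha: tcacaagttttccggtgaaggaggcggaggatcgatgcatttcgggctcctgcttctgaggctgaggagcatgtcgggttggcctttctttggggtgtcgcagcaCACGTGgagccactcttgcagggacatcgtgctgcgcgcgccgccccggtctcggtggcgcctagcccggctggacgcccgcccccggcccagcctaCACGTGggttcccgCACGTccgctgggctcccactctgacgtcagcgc
Pgk1: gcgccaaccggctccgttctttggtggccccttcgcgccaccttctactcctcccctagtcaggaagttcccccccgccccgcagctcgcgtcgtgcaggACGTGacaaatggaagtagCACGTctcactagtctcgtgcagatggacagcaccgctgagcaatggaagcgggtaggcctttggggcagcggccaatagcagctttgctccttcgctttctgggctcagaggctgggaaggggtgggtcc
Tpi1: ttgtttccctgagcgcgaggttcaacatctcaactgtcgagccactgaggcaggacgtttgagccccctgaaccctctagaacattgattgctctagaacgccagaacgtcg
Gapdh: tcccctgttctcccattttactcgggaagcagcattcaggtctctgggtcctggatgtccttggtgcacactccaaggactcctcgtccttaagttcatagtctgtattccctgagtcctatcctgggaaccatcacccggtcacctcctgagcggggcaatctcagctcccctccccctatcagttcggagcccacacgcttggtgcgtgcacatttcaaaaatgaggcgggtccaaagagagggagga
Pdk1: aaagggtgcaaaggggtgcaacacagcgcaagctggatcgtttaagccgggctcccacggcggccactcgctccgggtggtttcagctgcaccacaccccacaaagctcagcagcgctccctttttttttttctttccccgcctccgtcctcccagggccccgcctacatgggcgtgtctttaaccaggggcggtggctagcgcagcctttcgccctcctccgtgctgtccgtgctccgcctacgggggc
The Ldha window holds 5 matches that merge to 3 capital runs, since each E-box is read as a match on both strands, and the Pgk1 window holds 2.

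The pathway was expressed in every library, and its genes differed widely in level. Per kilobase of exon, Aldoa, the aldolase that splits the 6-carbon sugar, was highest in naive and activated cells, with 188 ± 9.82 CPM per kb in p52ki naive and 171 ± 16.6 CPM per kb in WT naive cells (SD, n = 3 each). Ldha, the lactate dehydrogenase subunit, followed with 126 ± 3.79 and 126 ± 12.8 CPM per kb in the same p52ki and WT groups. Gapdh, which makes the first NADH of the pathway, had 84.9 ± 17.4 CPM per kb in p52ki naive and 75.2 ± 6.04 CPM per kb in WT naive cells. In GC cells the order of the top genes changed: Gapdh led with 230 ± 6.66 CPM per kb in p52ki GC (n = 2) and 284 ± 35.9 CPM per kb in WT GC cells (n = 3). Ldha came next with 160 ± 30.9 in p52ki GC and 213 ± 52.3 CPM per kb in WT GC cells, then Aldoa with 149 ± 30.3 and 152 ± 4.40 CPM per kb in the same groups. Hk2, a hexokinase that traps glucose in the cell, was the lowest member in naive, activated and WT GC cells, at 0.429 to 0.985 CPM per kb. In p52ki GC cells the lowest was Pdk1, a kinase that switches off pyruvate dehydrogenase, at 0.0679 ± 0.096 CPM per kb. The 10 genes together summed to 2410 ± 161 CPM in p52ki GC and 3190 ± 477 CPM in WT GC cells. They summed to 1930 ± 64 CPM in p52ki naive, 1800 ± 107 CPM in WT naive, 1950 ± 111 CPM in p52ki activated and 1710 ± 135 CPM in WT activated cells. In bulk RNA, fewer expressing cells and less RNA per cell cannot be told apart.

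**Figure D1:**
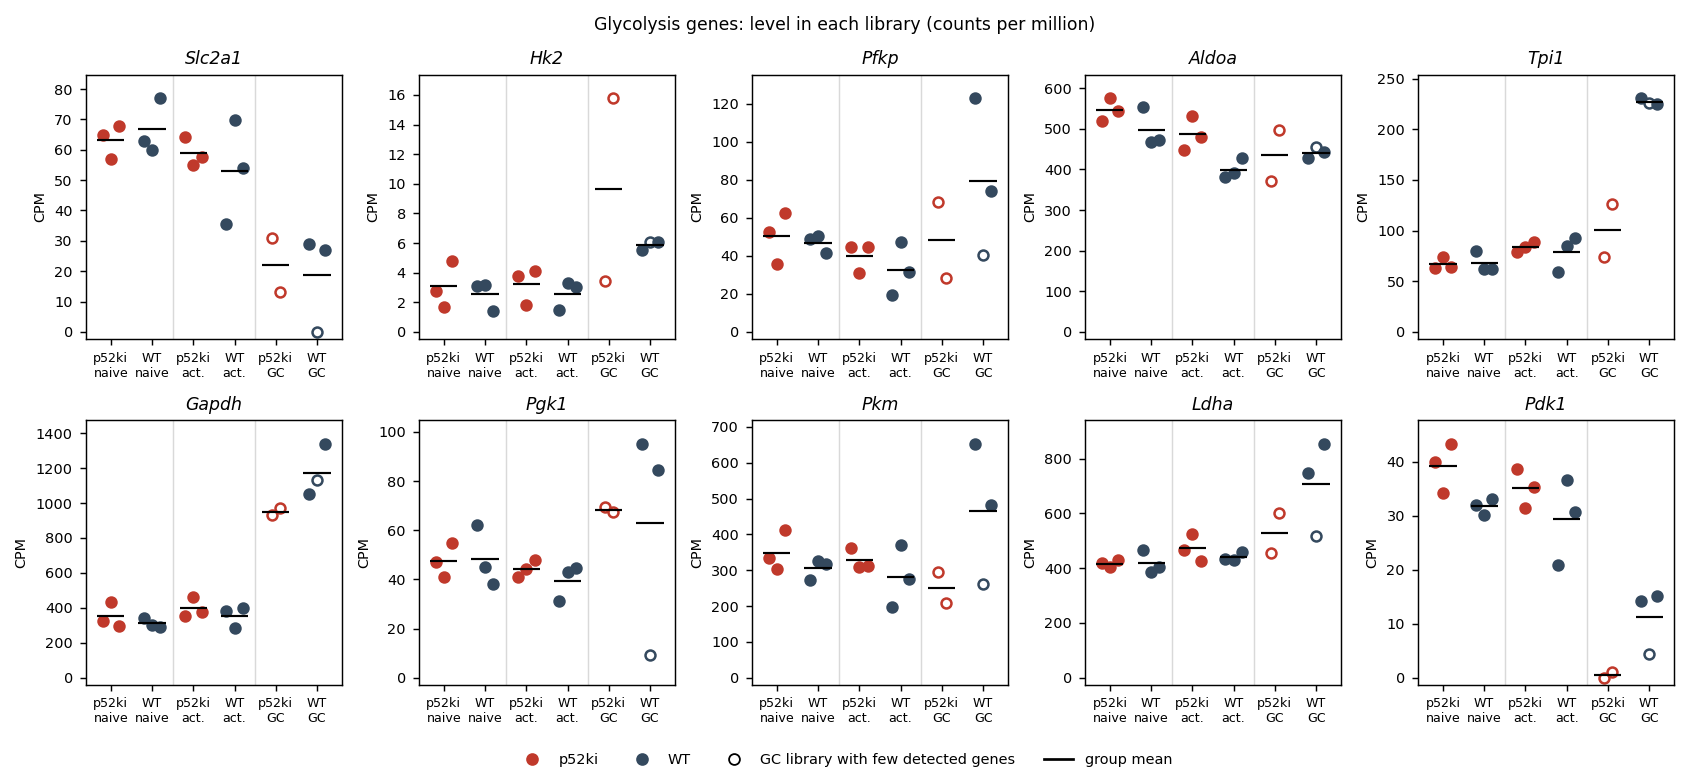
Level of each of the 10 glycolysis genes in CPM (y axis, linear, from 0) in every library, by group along the x axis; points are libraries, open points are the 3 GC libraries with 11232 to 13044 detected genes, and bars are group means. The naive and activated libraries of each gene overlap in range, Gapdh is above them in all 5 GC libraries, Tpi1 is at 225 to 231 CPM in the 3 WT GC libraries, and Pdk1 is near 0 in both p52ki GC libraries.

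Activation was not accompanied by a called change in any of the 10 genes. A gene is called where the adjusted p of edgeR's quasi-likelihood test (Benjamini-Hochberg, across the 15352 genes) is under 0.05, and this is the test behind each adjusted p below unless another is named. In p52ki cells, 0 of 10 members were called between activated and naive cells, where 0.117% of all genes were and 4% had an unadjusted p under 0.05. In WT cells 0 of 10 were called, where 0.319% of all genes were and 5.6% had an unadjusted p under 0.05. A further fit used the replicate number within each genotype as a block over all 17 libraries, GC included. With it, 2 genes of all those tested were called in p52ki and 17 in WT cells, in place of 18 and 49, and still no member. The log2 differences ran between -0.32 and 0.33 in p52ki and between -0.48 and 0.29 in WT cells, and no member had an unadjusted p under 0.05. DESeq2 also called no member. By limma voom with sample quality weights, 1 member was called in WT cells, Tpi1, with a log2 difference of 0.48 (limma adjusted p = 0.0445). Tpi1, the isomerase that interconverts the products of that split, had 78.6, 83.8 and 88.7 CPM in p52ki activated, against 63.3, 73.8 and 63.8 CPM in p52ki naive cells. It had 59.6, 84.3 and 92.7 CPM in WT activated against 80.1, 61.9 and 62.1 CPM in WT naive cells. The activated libraries lay above the naive ones in p52ki, as was so of 11.2% of all genes, and overlapped them in WT. Aldoa lay the other way in WT, with 381, 390 and 427 CPM in activated against 554, 468 and 472 CPM in naive cells, below without overlap as were 9.92% of all genes. Before activation the cells held Ldha at 418, 404 and 429 CPM in p52ki and 466, 386 and 403 CPM in WT, and Gapdh at 322, 433 and 298 CPM in p52ki and 339, 300 and 293 CPM in WT.

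Before the GC stage the genotypes did not differ in a called way either. In naive cells 0 of 10 members were called between p52ki and WT, where 0% of all genes were called and 0.521% had an unadjusted p under 0.05. In activated cells 0 of 10 were called, where 0.013% of all genes were and 0.873% had an unadjusted p under 0.05. In both stages 0 members had an unadjusted p under 0.05. DESeq2, limma voom and each other setting tried also called no member in either stage. In activated cells all 10 log2 differences were positive, between 0.02 and 0.25, with a median of 0.13 beside 0 over all genes tested. Slc2a1, the glucose transporter GLUT1, had 64.1, 54.9 and 57.5 CPM in p52ki activated against 35.4, 69.7 and 54.0 CPM in WT activated cells. WT activated replicate 1 was the lowest of the 6 for Slc2a1, and also for Hk2, Pfkp, Aldoa, Tpi1, Pgk1, Pkm and Pdk1. Aldoa in activated cells lay higher in all p52ki libraries, as did 4.34% of all genes, and so did Pdk1 in naive cells, with 40, 34.1 and 43.3 CPM in p52ki against 32, 30.2 and 33 CPM in WT, as did 5.3% of all genes. The 95% intervals were narrow for Aldoa, with limits of -0.28 and 0.52 for naive and -0.19 and 0.61 for activated cells on the log2 scale. They were wide for Slc2a1, with limits of -1.87 and 1.69 for naive and -1.68 and 1.88 for activated cells. A 2-fold difference in that gene was thus not detectable in this fit, which takes 1 spread per gene from all 17 libraries, GC included. Within the naive groups Slc2a1 had 63.2 ± 5.56 CPM in p52ki and 66.7 ± 9.11 CPM in WT cells (SD, n = 3 each).

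In GC cells Gapdh was higher than in activated cells in both genotypes, and Tpi1 in WT. Of the 10 genes, 3 rose in WT GC against WT activated cells, Gapdh, Tpi1 and Pfkp, and none fell, where 5.80% of all genes were called higher and 13.6% in either direction. In p52ki GC against p52ki activated cells, Gapdh rose and Pdk1 fell, where 25.6% of all genes were called, 6.34% higher and 19.3% lower. The median log2 difference of the members was 0.28 in p52ki and 0.70 in WT, beside -0.41 and -0.13 over all genes tested in the same contrasts. The share of all genes without overlap between GC and activated libraries is not given here. A lack of overlap between these stages, where named below, therefore only describes the libraries.

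Neither the glucose transporter nor the hexokinase was called by edgeR with all libraries. Slc2a1 (ENSMUSG00000028645, chr4:119108711-119137983 on GRCm38, plus strand) had 31.0 and 13.3 CPM in p52ki GC cells, and 29, 0 and 27.1 CPM in WT GC cells. Every GC library was below every activated library of its genotype, but the log2 differences were -1.36 ± 0.954 (SE, edgeR adjusted p = 0.308) in p52ki and -1.48 ± 0.828 (edgeR adjusted p = 0.279) in WT. The 0 is in WT GC replicate 3, where 3 counts correspond to 0.609 CPM, and without that library the WT difference was -0.90 (edgeR adjusted p = 0.0505). limma voom called it at -1.05 (limma adjusted p = 0.0161). Hk2 (ENSMUSG00000000628, chr6:82725025-82774454, minus strand) had 3.44 and 15.8 CPM in p52ki GC against 3.79, 1.81 and 4.11 CPM in p52ki activated cells (log2 difference 1.72 ± 0.681 SE, edgeR adjusted p = 0.0749). Of the p52ki GC libraries, 1 was within the activated range and 1 above it. It was called by DESeq2, at 1.69 (DESeq2 adjusted p = 0.0304), and without p52ki GC replicate 2, at 2.44 (edgeR adjusted p = 0.0156). In WT, Hk2 had 5.51, 6.09 and 6.04 CPM in GC against 1.45, 3.27 and 3.02 CPM in activated cells, with no overlap, and a log2 difference of 1.18 ± 0.631 (SE, edgeR adjusted p = 0.251).

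The middle steps differed from gene to gene. Pfkp (ENSMUSG00000021196, chr13:6579768-6648777, minus strand), the platelet-type phosphofructokinase that commits the sugar to glycolysis, had 68.4 and 28.1 CPM in p52ki GC against 44.6, 30.7 and 44.8 CPM in p52ki activated cells, 1 above and 1 below them (log2 difference 0.32 ± 0.442 SE, edgeR adjusted p = 0.624). It had 123, 40.6 and 73.9 CPM in WT GC against 19.6, 47.3 and 31.3 CPM in WT activated cells. The groups overlapped, and the log2 difference was 1.28 ± 0.403 (SE, edgeR adjusted p = 0.0474). That call was lost without any 1 of the 3 WT activated libraries or without WT GC replicate 1 or 4, with edgeR adjusted p between 0.0516 and 0.185. It was also lost with RLE scaling, with no filter on low counts, in a fit of the compared groups alone and with the replicate block (edgeR adjusted p = 0.0671, 0.0592, 0.168 and 0.135), and was called in 5 of 14 alternatives. Aldoa (ENSMUSG00000030695, chr7:126795234-126800751, minus strand) had 372 and 497 CPM in p52ki GC against 447, 532 and 479 CPM in p52ki activated cells, and 428, 454 and 442 CPM in WT GC against 381, 390 and 427 CPM in WT activated cells. Its log2 differences were -0.08 ± 0.201 in p52ki and 0.12 ± 0.18 in WT (SE, edgeR adjusted p = 0.809 and 0.719). Tpi1 (ENSMUSG00000023456, chr6:124810586-124814296, minus strand) had 231, 226 and 225 CPM in WT GC cells, every one above the WT activated libraries. It was 2.86-fold higher than in WT activated cells (log2 difference 1.52 ± 0.242 SE, edgeR adjusted p = 0.000693). In p52ki GC cells Tpi1 had 74.3 and 126 CPM, on both sides of the p52ki activated libraries, with a log2 difference of 0.36 ± 0.264 (SE, edgeR adjusted p = 0.332).

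Gapdh (ENSMUSG00000057666, chr6:125161715-125166467, minus strand) was the member that rose in GC cells of both genotypes. It had 931 and 970 CPM in p52ki GC against 356, 464 and 376 CPM in p52ki activated cells, a 2.51-fold difference (log2 1.33 ± 0.254 SE, edgeR adjusted p = 0.0026). In WT it had 1050, 1130 and 1340 CPM in GC against 382, 287 and 398 CPM in activated cells, a 3.23-fold difference (log2 1.69 ± 0.236 SE, edgeR adjusted p = 0.00027). All GC libraries lay above all activated ones, including the 3 with few detected genes. By limma voom the p52ki difference did not pass, at 1.47 (limma adjusted p = 0.108). Entries of the table named as processed copies of Gapdh held 4.28% as many counts as Gapdh, and adding them left the differences at 1.33 in p52ki and 1.69 in WT.

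Of the later steps, Pgk1 and Pkm lay above every WT activated library in WT GC replicates 1 and 4 and not in replicate 3, and Ldha did in all 3. Pgk1 (ENSMUSG00000062070, chrX:106187100-106203699, plus strand), which makes the first ATP, had 69.3 and 67.5 CPM in p52ki GC against 41.1, 44.3 and 47.7 CPM in p52ki activated cells. In WT it had 95.2, 9.34 and 84.5 CPM in GC against 31.2, 42.8 and 44.5 CPM in activated cells, so replicate 3 lay far below the other GC libraries and below every activated one. Its log2 differences were 0.70 ± 0.582 in p52ki and 0.67 ± 0.529 in WT (SE, edgeR adjusted p = 0.396 and 0.463). Pkm (ENSMUSG00000032294, chr9:59656368-59679375, plus strand), pyruvate kinase, had 653, 261 and 483 CPM in WT GC against 198, 369 and 275 CPM in WT activated cells (log2 difference 0.73 ± 0.264 SE, edgeR adjusted p = 0.0811). Ldha (ENSMUSG00000063229, chr7:46841475-46855627, plus strand) had 747, 516 and 855 CPM in WT GC against 432, 430 and 461 CPM in WT activated cells, without overlap (0.66 ± 0.215 SE, edgeR adjusted p = 0.0534). Without WT GC replicate 3, a library with few detected genes, 6 members were called in WT: the 3 above and Pgk1 at 1.18 (edgeR adjusted p = 0.00347), Pkm at 1.03 (edgeR adjusted p = 0.00198) and Ldha at 0.85 (edgeR adjusted p = 0.0106). Over all genes, 2637 were called in that fit, beside 2081 with all libraries. In p52ki, Pkm had 294 and 208 CPM in GC against 362, 309 and 311 CPM in activated cells, and Ldha 456 and 601 against 467, 525 and 425 CPM. Neither was called, with log2 differences of -0.32 ± 0.296 for Pkm and 0.25 ± 0.238 for Ldha (SE, edgeR adjusted p = 0.459 and 0.473).

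Pdk1 (ENSMUSG00000006494, chr2:71873224-71903858, plus strand) fell in p52ki GC cells. It had 0 and 1.06 CPM in p52ki GC cells, that is 0 and 7 counts, against 38.7, 31.4 and 35.2 CPM in p52ki activated cells. The log2 difference was -5.72 ± 0.818 (SE, edgeR adjusted p = 0.000366). In WT it had 14.2, 4.47 and 15.1 CPM in GC against 20.9, 36.6 and 30.6 CPM in activated cells, with no overlap and a log2 difference of -1.37 ± 0.532 (SE, edgeR adjusted p = 0.108). The WT difference was called by DESeq2, at -1.47 (DESeq2 adjusted p = 0.000234), and by limma voom, at -1.07 (limma adjusted p = 0.00205). The stage difference of Pdk1 in p52ki minus that in WT was -4.36 ± 0.92 on the log2 scale (SE, edgeR adjusted p = 0.0136). It was the only 1 of the 10 members called in that comparison of stage differences, where 5.95% of all genes were called. That call was lost with the replicate block, at -4.49 (edgeR adjusted p = 0.0775), in a fit of the compared groups alone (edgeR adjusted p = 0.159) and by limma voom (limma adjusted p = 0.274). The same comparison gave -1.16 ± 0.36 for Tpi1 (SE, edgeR adjusted p = 0.0677) and -1.05 ± 0.398 for Pkm (SE, edgeR adjusted p = 0.123). For the change at activation, 0 of 10 members and 0% of all genes were called as different between genotypes, and 0 members and 0.423% of all genes had an unadjusted p under 0.05.

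Set against naive cells, Gapdh was higher in GC cells of both genotypes, Tpi1 and Ldha were higher in WT, and Pdk1 was lower in p52ki. These contrasts share the GC libraries with those above and add no separate evidence. In p52ki, 2 of 10 members were called, where 29.1% of all genes were: Gapdh at 1.52 ± 0.254 (SE, edgeR adjusted p = 0.000831) and Pdk1 at -5.87 ± 0.822 (SE, edgeR adjusted p = 0.00022). In WT, 3 of 10 members were called, all higher, where 15.9% of all genes were called and 8.45% called higher: Gapdh at 1.98 ± 0.238 (SE, edgeR adjusted p = 5.24e-05), Tpi1 at 1.8 ± 0.244 (SE, edgeR adjusted p = 0.000135) and Ldha at 0.82 ± 0.215 (SE, edgeR adjusted p = 0.0172). The Ldha call was lost in a fit of the compared groups alone and without WT naive replicate 3 or 4 or WT GC replicate 4, with edgeR adjusted p between 0.0672 and 0.0854. Pdk1, not called in WT by edgeR, was called there by DESeq2 at -1.53 and by limma voom at -1.04 (adjusted p = 0.000105 and 0.00132). Pfkp was not called there, at 0.80 ± 0.398 (SE, edgeR adjusted p = 0.197). Its WT naive libraries, at 48.9, 50.5 and 41.5 CPM, lay above 2 of the 3 WT activated ones.

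**Figure D2:**
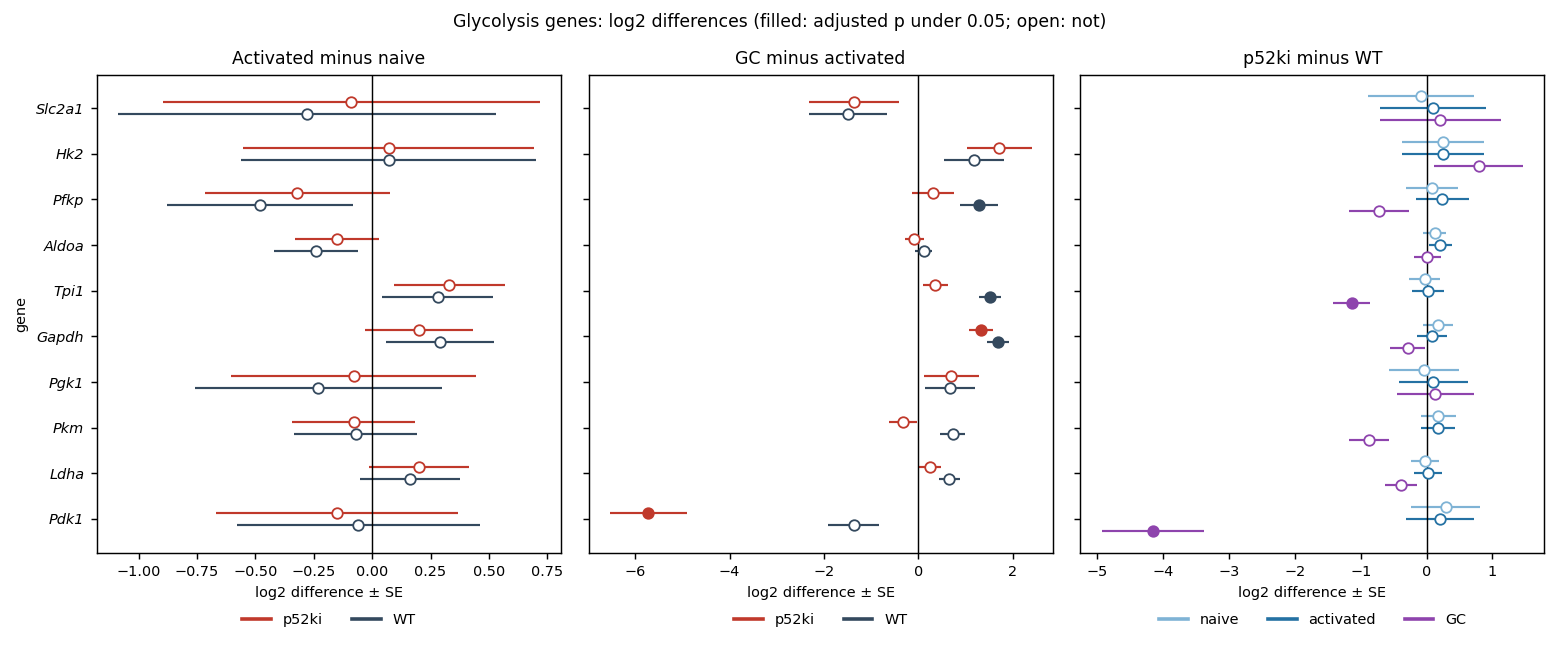
Log2 differences of the 10 glycolysis genes with their standard error (x axes, which differ in range) for activated minus naive cells, GC minus activated cells, each in p52ki and WT, and p52ki minus WT in each stage; filled points have an edgeR adjusted p under 0.05. No point is filled for activation or for the genotypes in naive and activated cells, and the widest genotype difference is that of Pdk1 in GC cells, at -4.16.

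Between p52ki and WT GC cells, 2 of the 10 genes differed, both lower in p52ki: Tpi1 and Pdk1. Among all genes 16% were called, 12.2% lower and 3.75% higher, and the members' median log2 difference was -0.34 beside -0.32 over all genes. A count of 2 of 10 is a share near that background, which was 2450 genes and became 1561 without WT GC replicate 1, 4397 without WT GC replicate 3 and 4450 without p52ki GC replicate 5. Tpi1 had 74.3 and 126 CPM in p52ki GC against 231, 226 and 225 CPM in WT GC cells, 2.20-fold lower with no overlap (log2 -1.14 ± 0.275 SE, edgeR adjusted p = 0.014). Pdk1 had 0 and 1.06 CPM in p52ki GC against 14.2, 4.47 and 15.1 CPM in WT GC cells, 17.9-fold lower in the fit (log2 -4.16 ± 0.777 SE, edgeR adjusted p = 0.00333). In p52ki GC replicate 2, where Pdk1 had no count, 3 counts correspond to 0.738 CPM.

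Without WT GC replicate 3, the WT library that likewise had few detected genes, Tpi1 differed by -1.04 (edgeR adjusted p = 0.0163) and Pdk1 by -4.39 (edgeR adjusted p = 0.00012). Set against that replicate alone, a choice made after the data were seen and given with no test, they differed by -1.10 and -2.75. The calls were lost by limma voom (limma adjusted p = 0.332 for Tpi1 and 0.295 for Pdk1) and in a fit of the GC libraries alone (edgeR adjusted p = 0.621 and 0.631). Without p52ki GC replicate 2, Tpi1 was at -0.76 (edgeR adjusted p = 0.0847), while without p52ki GC replicate 5, Pdk1, then with no count in the only p52ki library, stayed called at -9.54, which is no bound. The library numbers in the sample titles are 1 to 12 for WT and 19 to 30 for p52ki, and a batch along this order cannot be told apart from genotype.

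The other 8 genes did not pass between the GC groups. Gapdh, at 931 and 970 CPM in p52ki GC against 1050, 1130 and 1340 CPM in WT GC cells, did not overlap, as was so of 16.3% of all genes in that direction, and differed by -0.29 ± 0.259 (SE, edgeR adjusted p = 0.47). Pkm, at 294 and 208 CPM in p52ki GC against 653, 261 and 483 CPM in WT GC cells, differed by -0.88 ± 0.302 (SE, edgeR adjusted p = 0.0596), and by -1.05 (edgeR adjusted p = 0.00294) without WT GC replicate 3. Against that replicate alone Pkm was at -0.01. Aldoa was the closest, at 0.01 ± 0.201. Slc2a1 and Pgk1 depended on WT GC replicate 3, in which they had 0 and 9.34 CPM. They differed by 0.21 and 0.13 against all 3 WT GC libraries, and by -0.24 and -0.26 without that replicate (edgeR adjusted p = 0.597 and 0.484). Against that replicate alone, Slc2a1, with no count there, was at 10.46 and Pgk1 at 2.92. With detected genes as a covariate, an unplanned setting, both were called higher in p52ki, at 4.23 and 2.14 (edgeR adjusted p = 0.0121 and 0.0109).

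Among the kinases that restrain pyruvate dehydrogenase, Pdk3 held nearly all of the summed level in GC cells. Per kilobase, Pdk1 held 0.246% of the summed level of Pdk1, Pdk2, Pdk3 and Pdk4 in p52ki GC and 2.57% in WT GC cells. In activated cells it held 16.8% in p52ki and 14.2% in WT, and in naive cells 18.4% in p52ki and 16.1% in WT. Pdk3 held 99.8% in p52ki GC and 97.0% in WT GC cells. Pdk3 itself had 10.8 and 70.3 CPM in p52ki GC against 130, 108 and 164 CPM in WT GC cells, and 38.7 to 61.4 CPM in p52ki activated against 44.0 to 59.8 CPM in WT activated cells. All 3 WT GC libraries lay above the WT activated ones, at a log2 difference of 1.36 ± 0.486 (SE, edgeR adjusted p = 0.0798), and against WT naive cells Pdk3 rose by 1.74 (edgeR adjusted p = 0.0249). Pdk2 had no count in either p52ki GC library and 0.918, 0 and 1.31 CPM in WT GC against 7.24, 11 and 7.21 CPM in WT activated cells. In WT it fell by 3.37 on the log2 scale (edgeR adjusted p = 0.00591). Pdk4 had no count in any of the 17 libraries.

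**Figure D3:**
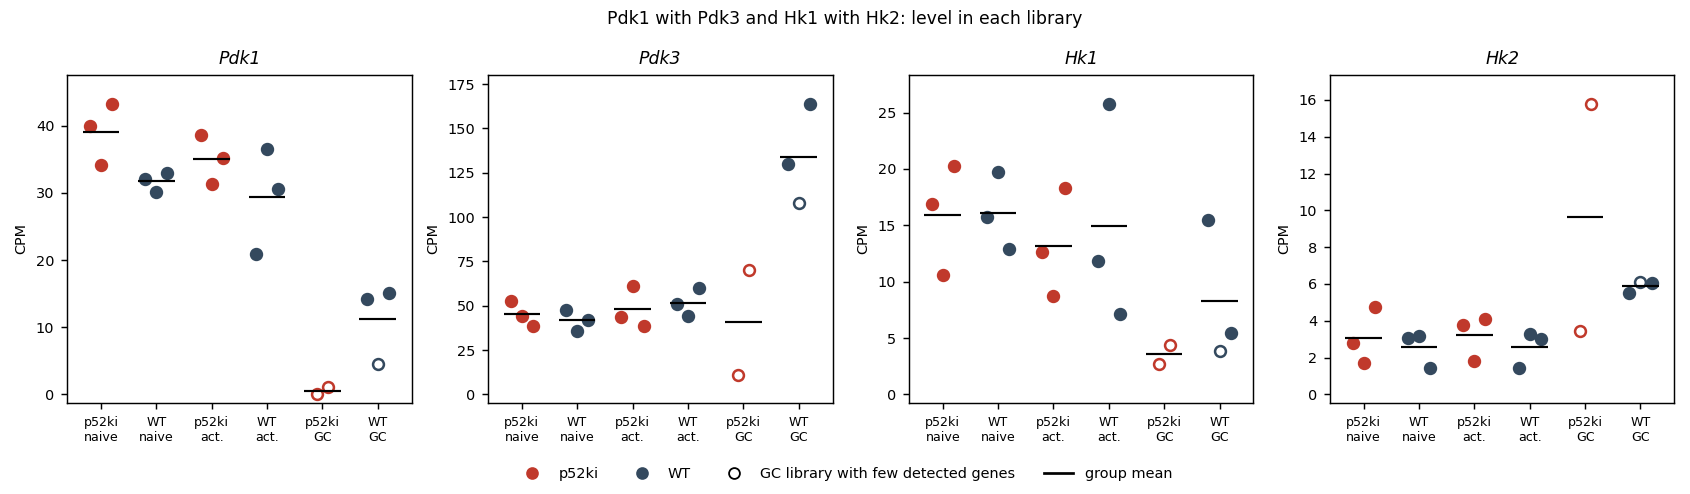
Level in CPM (y axes, linear, from 0) of Pdk1 beside Pdk3 and of Hk1 beside Hk2 in every library by group; open points are the 3 GC libraries with few detected genes and bars are group means. Pdk1 is lower and Pdk3 higher in the 3 WT GC libraries than in WT activated ones, and Pdk3 is at 10.8 and 70.3 CPM in the p52ki GC libraries.

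Paralogues of the other members gave each step its own balance. Hk2 held 74.2% of the hexokinase level per kilobase in p52ki GC and 54.8% in WT GC cells, against 24.5% in p52ki activated and 22.6% in WT activated cells, as means over libraries. The libraries did not overlap in p52ki, at 64.5% to 83.8% in GC and 20.1% to 29.4% in activated cells, and overlapped in WT, at 33.7% to 69.3% in GC and 14.6% to 37.9% in activated cells. Hk1, the hexokinase of most tissues, had 2.70 and 4.38 CPM in p52ki GC against 12.6, 8.69 and 18.3 CPM in p52ki activated cells, and 15.5, 3.86 and 5.43 CPM in WT GC against 11.8, 25.8 and 7.09 CPM in WT activated cells. Hk1 was called in p52ki GC against p52ki naive cells, where it fell by 2.04 on the log2 scale (edgeR adjusted p = 0.0391). All of these are low counts in the range where genes are missing from the 3 GC libraries with few detected genes. Pfkp shared its step with Pfkl, the liver type, and held 41.0% of the family in p52ki GC and 48.4% in WT GC cells, against 39.2% in p52ki activated and 36.6% in WT activated cells. Aldoa made up 98.6% or more of Aldoa and Aldoc in the mean of every group, and Ldhb, the heart-type lactate dehydrogenase subunit, reached at most 5 counts in a library. Slc2a1 held 71.3% to 87.4% of Slc2a1 and Slc2a3 per kilobase in the 16 libraries with a count of either, and Slc2a3 fell by 2.60 in WT GC against WT naive cells (log2 scale, edgeR adjusted p = 0.0438).

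**Figure D4:**
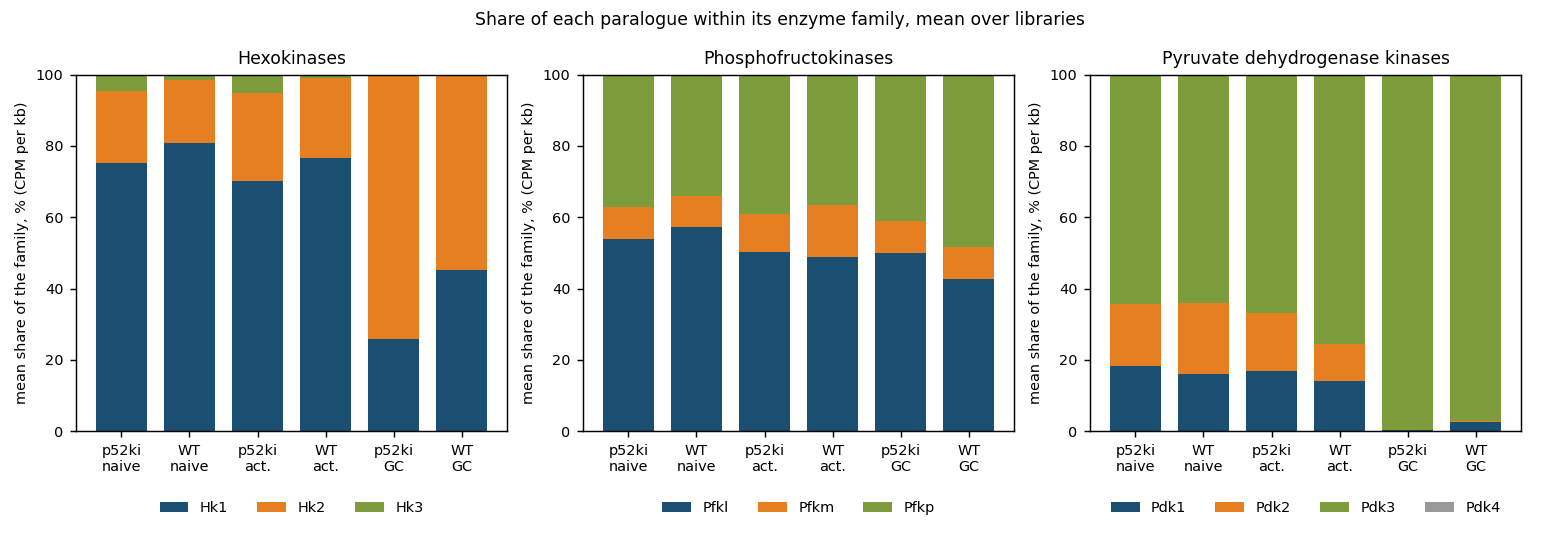
Mean share over libraries, in percent of CPM per kb (y axes, 0 to 100), of each paralogue among hexokinases, phosphofructokinases and pyruvate dehydrogenase kinases, by group. Hk2 is at 74.2% and 54.8% of its family in p52ki GC and WT GC cells, Pdk3 at 99.8% and 97.0% of its own, and the phosphofructokinases differ less.

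Around the 10 genes, the neighbouring steps were described by lists chosen with earlier results of these data known. Of 20 paralogues and further glycolytic steps, 16 were tested. In WT GC against WT activated cells 1 rose, the mutase Pgam1 (log2 0.96, edgeR adjusted p = 0.0142), and 1 fell, Pdk2, where 13.6% of all genes were called. In p52ki GC against WT GC cells 1 was higher, Pfkfb3, which makes the activator of phosphofructokinase (1.92, edgeR adjusted p = 0.0264), and 3 were lower, Pdk2, Pfkfb4 and the lactate transporter Slc16a1 (-1.98 ± 0.51 SE, edgeR adjusted p = 0.0184), where 16% of all genes were called. Of the 9 genes for entry of pyruvate into mitochondria, among them Mpc1, Mpc2 and the pyruvate dehydrogenase subunits, 0 were called in any contrast by edgeR, and at most 1 in a contrast had an unadjusted p under 0.05. DESeq2 called 1 in p52ki GC against p52ki naive cells, and limma voom 1 in WT activated against WT naive cells.

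Of 15 genes of the citric acid cycle, 3 rose in WT GC against WT activated cells, where 5.80% of all genes did: citrate synthase Cs by 1.03 (log2, edgeR adjusted p = 0.0346), Sdhb by 1.08 (edgeR adjusted p = 0.0151) and Fh1 by 1.10 (edgeR adjusted p = 0.0293). In p52ki GC against WT GC cells 5 were lower and none higher, where 12.2% of all genes were lower and 3.75% higher, with Ogdh at -2.19 (edgeR adjusted p = 0.00272), Sdha at -1.22 (edgeR adjusted p = 0.0188) and Fh1 at -1.29 (edgeR adjusted p = 0.0265). The median of the 15 was -0.07 there, beside -0.32 over all genes. Of 7 genes of the pentose phosphate pathway, Pgd rose in WT GC against WT activated cells (1.21, edgeR adjusted p = 0.0299). In p52ki GC against WT GC cells Pgd was lower (-1.35, edgeR adjusted p = 0.0346) and Rpia higher (2.41, edgeR adjusted p = 0.0239).

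Of 14 other genes of the hypoxia response tested, 2 were lower in WT GC against WT activated cells and none higher, Bnip3l (-1.23, edgeR adjusted p = 0.00111) and Adm (-4.99, edgeR adjusted p = 0.0191), where 7.75% of all genes were lower and 5.80% higher. The median of the 14 was -1.20, beside -0.13 over all genes. In p52ki GC against WT GC cells Bnip3l was higher (0.72, edgeR adjusted p = 0.0454) and Ero1l lower (-5.75, edgeR adjusted p = 0.0184), and the median of the 14 was 0.54, beside -0.32 over all genes. Ero1l had 0 to 0.453 CPM in p52ki GC and 0 to 29 CPM in WT GC cells, so the groups overlapped. Adm had 0 to 2.62 CPM in WT GC cells. Hif1a had 59.5 and 72.6 CPM in p52ki GC against 213, 20.5 and 152 CPM in WT GC cells and was called in no contrast. Myc had 262 and 48.8 CPM in p52ki GC against 55.3, 43.0 and 65.8 CPM in WT GC cells. Against WT activated cells, at 114, 213 and 244 CPM, WT GC cells held less Myc, which fell by 1.79 (log2, edgeR adjusted p = 0.0287). Among the 13 regulators tested, Bcl6, a repressor that defines GC cells, rose in that contrast (2.59, edgeR adjusted p = 0.000149) and Irf4 fell (-2.03, edgeR adjusted p = 0.000206).

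The genes did not vary as 1 block between libraries. Over the 12 naive and activated libraries, log2 CPM of Pkm and Pdk1 had a Pearson r of 0.92, Pfkp and Pdk1 0.85, Pfkp and Pkm 0.84, and Slc2a1 had 0.83 with both Pfkp and Pkm. Gapdh had r of -0.65 against Pfkp and -0.59 against Slc2a1, and of 0.55 with Ldha and 0.45 with Tpi1. These are descriptions over libraries that share groups and sequencing depth. Against the mean of the other 9 members over these 12 libraries, Pdk1 had 0.849 and Pgk1 0.818, while Ldha had 0.0631 and Gapdh -0.227. Over all 17 libraries the order was different: Pdk1 had -0.181, Pgk1 0.531, Ldha 0.653 and Gapdh 0.258. Pkm was highest there with 0.718, and Slc2a1 and Aldoa had -0.131 and -0.0162, so not every member followed the mean used next. The 5 other protein-coding genes most like the members' mean over all 17 libraries, out of 11445, were Hmga1b (r = 0.94), Usp1 (0.919), Adss (0.90), Ndc80 (0.893) and Gnas (0.889). Within the 12 naive and activated libraries these 5 had r of 0.814, 0.749, 0.633, 0.541 and 0.764. Usp1, a deubiquitinase, had 111 ± 3.93 CPM in p52ki GC (SD, n = 2) and 202 ± 96.5 CPM in WT GC cells (SD, n = 3), and 82.4 to 111 CPM as the mean of each naive and activated group.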

How the data were processed

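RNA was sequenced from sorted B cells by a SMART-Seq protocol with 17 PCR cycles and no molecular identifiers named, per the labels' protocols, so floors cover counting error only. The deposited values are unnormalized counts of reads on genes. Per the submitters' processing notes, the authors used GRCm38, HISAT2 2.1.0, featureCounts (Subread 1.6.2) and SAMtools 1.8 to make them. The sources used here give no strand setting, annotation release or rule for reads with several matches, so genes with processed copies (Gapdh, Pgk1, Aldoa, Ldha) and overlapping genes are uncertain. All 55536 identifiers matched GENCODE mouse release 21.

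From the counts, filterByExpr left 15352 genes. edgeR 4.0.16 in R 4.3.3 (TMM, glmQLFit with robust estimation, glmQLFTest) was fitted with 1 coefficient per group over all 17 libraries, with 11 contrasts, each adjusted by Benjamini-Hochberg across its 15352 genes. CPM are counts scaled to a common library total, without TMM, and per kilobase uses the merged exons. 95% intervals use the SE and 11 residual degrees of freedom. Alternatives were RLE scaling, no filter, DESeq2 1.42.0, voom with sample quality weights in limma 3.58.1, the compared groups alone, a replicate block and leaving out each library. The members, lists and naming rule (all members, up to 3 called genes with the smallest p from each other list and contrast, paralogues, Hif1a, Myc, Nfkb2, and the 5 most correlated genes) were chosen with earlier results of these data known. Some called genes are given by name beside their list without values. The marker lists for GC and for erythroid and platelet cells each leave out 1 gene that is not reported here.

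Replicates are numbered 1, 3 and 4 in WT and 2, 3 and 5 in p52ki. Deviations from the group means of same-numbered naive and activated libraries had r of 0.127 to 0.362 in p52ki and 0.107 to 0.231 in WT. Same-numbered pairs with a GC library had r of -0.295 to 0.085. Differently numbered libraries were not compared, so these values do not settle which libraries are paired. The main fit takes no pairing into account. Pairing enters only the alternative fit with the replicate block, which covers GC libraries too. Whether replicates are separate animals is not stated, so p-values may rest on technical spread. The fits were tested on simulated counts for WT GC against WT activated cells only. The simulation built in no loss of genes like that of the 3 GC libraries, so it does not check the fits for such libraries.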

Additional observations from a re-analysis of the deposited data

Results flagged for a closer look

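The stage difference of Pdk1 from activated to GC cells was not the same in the genotypes. It was -5.72 ± 0.818 in p52ki and -1.37 ± 0.532 in WT on the log2 scale (SE), and the difference between them was -4.36 ± 0.92 (SE, edgeR adjusted p = 0.0136). Pdk1 was lower in both p52ki GC libraries than in each p52ki activated library, and in all 3 WT GC libraries than in each WT activated library. The comparison rests on 7 counts in the 2 p52ki GC libraries, both of which had few detected genes. Over 19 alternatives the difference ran between -9.74 and -3.04 and was called in 16. It was not called with the replicate block (-4.49, edgeR adjusted p = 0.0775), with the compared groups alone or by limma voom.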

How the results depend on the processing

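No called difference of a member turned its direction under any alternative run. For p52ki against WT in naive and in activated cells, p52ki activated against naive cells and the genotype difference in that change, every alternative called 0 members. In p52ki against WT GC cells 2 members were called, and 0 by voom, 0 with the groups alone, 3 with no filter and 4 with detected genes as a covariate. The fit against WT GC replicate 3 alone is given no count, since it holds 1 WT GC library, whose spread is taken from the other groups. WT activated against naive cells gave 0, and 1 by voom. WT GC against activated cells gave 3, and 5 by DESeq2, 8 by voom, 5 with the covariate, and 2 with RLE, no filter, the groups alone or the block. p52ki GC against activated cells gave 2, and 0 by voom, while over 13 alternatives Hk2 was called in 2 and Pgk1 in 1. WT GC against naive cells gave 3, and 9 by voom, 4 by DESeq2, 4 with the covariate and 2 with the groups alone. p52ki GC against naive cells gave 2, and 4 by DESeq2, 1 by voom and 4 with the covariate. The difference between genotypes in GC against activated cells gave 1, and 2 by DESeq2, 0 by voom, 0 with the groups alone, 0 with the replicate block and 3 with the covariate. The cause of these moves was not tested.

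Leaving out 1 library at a time gave 1 to 3 members called in p52ki against WT GC cells, 2 to 6 in WT GC against activated, 2 to 3 in p52ki GC against activated, 2 to 7 in WT GC against naive, 2 to 4 in p52ki GC against naive and 1 to 2 in the difference between genotypes. The remaining contrasts gave 0 to 0. Where this left 1 p52ki GC library, its spread was taken from the other groups. Over single members, 718 of these values kept their side of the threshold, 13 passed it anew and 9 no longer passed, and of the other alternatives 813, 32 and 15.

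Whether same-numbered GC libraries are paired with the naive and activated ones cannot be told from these data. They carry the same replicate numbers, and a low r does not show that they are unrelated. With the replicate block Pdk1 differed in its stage difference by -4.49 (edgeR adjusted p = 0.0775), and Pfkp in WT GC against activated cells by 1.23 (edgeR adjusted p = 0.135). The block changed no other member's call. No paired analysis was possible between genotypes because they share only replicate number 3.

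Over all genes tested, p52ki against WT GC cells gave 2450 calls, 3924 by DESeq2, 15 by voom and 0 with the groups alone. WT GC against activated cells gave 2081, 3339, 5023 and 571 in the same order, and 1272 with the block. p52ki GC against activated cells gave 3930, 186 by voom, 2076 alone and 2423 with the block. WT activated against naive cells gave 49, 298 by DESeq2, 1618 by voom and 352 alone, and p52ki activated against naive cells 18, 152, 1228 and 473. WT GC against naive cells gave 2445, 3858 by DESeq2 and 5953 by voom, p52ki GC against naive cells 4461 and 390 by voom, and the GC stage difference between genotypes 913, 2243 by DESeq2, 13 by voom and 124 alone. With RLE scaling the median over all genes shifted by -0.10 in WT GC against naive cells and by less elsewhere. Without 1 library these counts ran from 1561 to 4450 in p52ki against WT GC cells, 1305 to 2637 in WT GC against activated, 2428 to 5401 in p52ki GC against activated, 1449 to 2919 in WT GC against naive, 2995 to 5729 in p52ki GC against naive and 378 to 3102 in the stage difference. Low counts limit Hk2, Pdk1 and Pdk2, and in GC cells also Ero1l, Adm and Pfkfb4.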
